A study of Homo sapiens with 18 samples.

Results

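The p53 response was examined through 9 of its target genes, CDKN1A, MDM2, MDM4, GDF15, BTG2, SESN1, TP53I3, ZMAT3 and PPM1D. They were chosen by name from an expression table of 36576 genes, and every m6A peak assigned to them was taken from the authors' 2 peak tables. All 9 were found once in the expression table, and all 9 passed a filter of a mean of at least 1 FPKM that left 12224 genes for testing. The study asked how nanomaterials change gene expression and the m6A methylation of RNA in human cells under the label A549, the name of a lung adenocarcinoma line. The groups were cells given 10 mg/L of the nanomaterial labelled BPQD for 24 h, cells given 100 mg/L of TiO2 (titanium dioxide) for 24 h, and untreated control cells. Each group had 3 input RNA libraries and 3 libraries of RNA immunoprecipitated for m6A, 18 in all. The 2 materials were given at different doses, so a difference between them is a difference between those 2 exposures.

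p53 is a transcription factor that binds DNA as a tetramer at pairs of short half-sites and accumulates after DNA damage, oxidant stress and other insults. Its targets stop the cell cycle, repair DNA, adjust metabolism or start apoptosis. A few of them, MDM2, MDM4 and PPM1D among them, encode proteins that hold p53 in check, which closes a feedback loop. m6A is a methyl mark on adenosines of mRNA, often near the stop codon and in the 3′ UTR, that reader proteins use to set the stability and translation of a transcript.

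The label of the cells was set against marker genes. Of 7 epithelial markers 5 averaged at least 1 FPKM, with KRT8 between 218 and 366 FPKM in single libraries, while KRT19 and CDH1 stayed under 1. Of 7 markers of lung epithelium and A549, ABCA3 alone reached a mean of 1 FPKM, at 7.75 to 11.9. The lung markers NKX2-1, SFTPB and SFTPC were at or near 0. AKR1B10, AKR1C1 and ALDH1A1, enzymes usually abundant in A549, were low, with a highest value of 1.14 FPKM. That value was of AKR1C1, which averaged 0.385 FPKM under BPQD, 1.02 under TiO2 and 1.07 in control. Most of the lung and A549 markers thus did not back the label, and it is used throughout only as a name for the cells. Whether p53 was active in the cells was not tested. The FPKM of all genes summed to 212891 to 213976 in BPQD libraries, 219458 to 219676 in TiO2 libraries and 221580 to 222818 in control libraries. Read depth is unknown, so precision rests on the 3 libraries of each group. Nothing in the labels says that these came from separate cultures, and p-values then reflect no more than how far these libraries scatter, which can be technical scatter alone. Gene IDs and positions in the files were human and lay on GRCh38, which is the build of every position below.

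The promoters of 5 of the genes are shown because the results turn on these genes, and because the second MDM2 promoter carries a textbook pair of p53 half-sites. Each is the 250 bases before a transcription start in RefSeq (GRCh38.p14), 5′ to 3′ along the gene's strand. Capitals mark, on both strands, a p53 half-site with its fixed core and at most 1 mismatch elsewhere, the TATA box TATAAA, the CCAAT box (which reads ATTGG from the other strand) and the GC box GGGCGG, which reads CCGCCC from the other strand, and overlapping matches run together.
MDM2, second promoter, chr12:68808767-68809016, plus strand: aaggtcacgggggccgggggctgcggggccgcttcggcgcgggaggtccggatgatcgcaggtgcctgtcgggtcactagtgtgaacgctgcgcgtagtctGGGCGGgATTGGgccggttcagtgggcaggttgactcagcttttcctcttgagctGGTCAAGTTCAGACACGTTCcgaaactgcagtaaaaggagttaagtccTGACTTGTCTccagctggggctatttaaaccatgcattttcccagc
CDKN1A, chr6:36678464-36678713, plus strand: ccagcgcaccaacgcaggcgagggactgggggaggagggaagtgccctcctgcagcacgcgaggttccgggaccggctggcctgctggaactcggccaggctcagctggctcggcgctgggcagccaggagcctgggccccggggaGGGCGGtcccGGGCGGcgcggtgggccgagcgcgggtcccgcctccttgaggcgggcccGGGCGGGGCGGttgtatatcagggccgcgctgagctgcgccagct
BTG2, chr1:203305269-203305518, plus strand: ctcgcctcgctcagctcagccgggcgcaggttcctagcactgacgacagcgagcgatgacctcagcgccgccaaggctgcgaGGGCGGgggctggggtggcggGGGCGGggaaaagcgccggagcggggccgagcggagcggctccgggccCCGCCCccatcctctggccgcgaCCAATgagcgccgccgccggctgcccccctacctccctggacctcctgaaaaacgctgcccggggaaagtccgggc
TP53I3, chr2:24084835-24085084, minus strand: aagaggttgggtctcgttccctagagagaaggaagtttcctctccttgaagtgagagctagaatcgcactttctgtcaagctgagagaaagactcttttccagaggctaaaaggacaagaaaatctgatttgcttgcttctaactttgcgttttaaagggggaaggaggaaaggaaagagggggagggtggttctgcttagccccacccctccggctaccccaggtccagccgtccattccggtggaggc
GDF15, chr19:18385908-18386157, plus strand: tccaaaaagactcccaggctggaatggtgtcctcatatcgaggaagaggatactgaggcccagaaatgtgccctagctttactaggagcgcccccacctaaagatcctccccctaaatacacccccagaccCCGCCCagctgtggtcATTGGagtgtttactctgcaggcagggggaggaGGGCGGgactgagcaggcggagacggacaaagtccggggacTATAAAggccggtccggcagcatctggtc

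In the MDM2 sequence the run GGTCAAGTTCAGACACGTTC holds 2 adjacent half-sites that begin 94 and 84 bases before the start, and a further half-site begins 46 bases before it. Adjacent half-sites were found in 49 of 35116 RefSeq promoter windows of this length, or 0.14%. Single half-sites were found in 39.3% of windows and in 4 of the 9 genes, MDM2, SESN1, ZMAT3 and PPM1D. The CDKN1A window held 4 GC boxes, the BTG2 window 3 GC boxes and a CCAAT box, the GDF15 window a TATA box, a CCAAT box and 2 GC boxes, and the TP53I3 window none of these motifs. Of all windows, 42.6% held a GC box, 32.0% a CCAAT box and 10.7% a TATA box. The known p53 elements of CDKN1A lie further upstream than this window reaches. These matches are letters in a window and say nothing of binding in these cells.

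CDKN1A, BTG2 and TP53I3 were lower under both materials than in control cells. CDKN1A was lowest under BPQD, BTG2 was lower by about the same amount under either material, and GDF15 stood apart, being higher under TiO2. MDM4, PPM1D, SESN1 and ZMAT3 were called in none of the 3 comparisons. Of the 9 genes, 3 were called under BPQD at a limma adjusted p under 0.05, and all 3 were lower. Of all tested genes 44.0% were called in that comparison, 20.6% higher and 23.4% lower. Under TiO2 5 were called, 1 higher and 4 lower, where 37.7% of all tested genes were called, 17.3% higher and 20.5% lower. Between the materials 3 were called, each lower under BPQD than under TiO2, where 37.6% of all tested genes were called, 19.0% higher and 18.6% lower. The median log2 fold change over the 9 genes was -0.18 under BPQD, against -0.01 over all tested genes. Under TiO2 it was -0.25, against -0.02 over all tested genes. Without control replicate 1 the median over the 9 genes was -0.08 under BPQD and changed sign under TiO2, to 0.06. In total the counts for BPQD and between the materials were below the background share, while their lower calls alone were above it, and no count by itself sets these genes apart. Both comparisons with control use the same 3 control libraries.

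**Figure D1:**
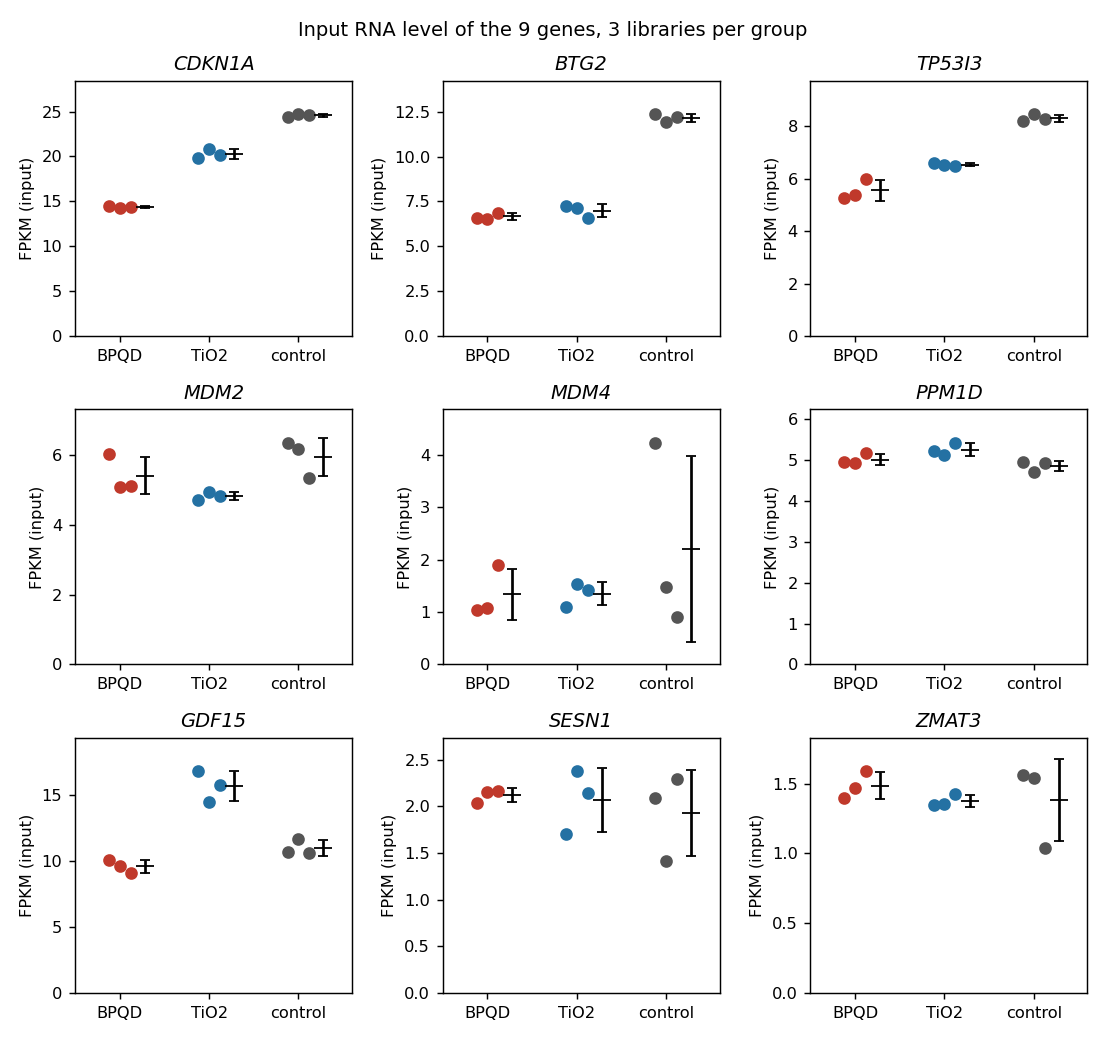
FPKM of the 9 genes in each input library, with BPQD, TiO2 and control from left to right; the bar beside the points gives the mean and SD (n = 3). CDKN1A, BTG2 and TP53I3 lie below control in every treated library, GDF15 lies above control in every TiO2 library, and 1 MDM4 control library at 4.24 FPKM lies far above the rest.

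CDKN1A (ENSG00000124762, chr6:36676460-36687339, plus strand) encodes p21, the inhibitor of cyclin-dependent kinases that stops the cell cycle. It had 14.5, 14.2 and 14.3 FPKM in the BPQD libraries, 19.8, 20.8 and 20.2 FPKM in the TiO2 libraries, and 24.4, 24.7 and 24.6 FPKM in the control libraries. The 3 groups did not overlap, with BPQD lowest and control highest. The mean level fell by 41.6% under BPQD, to 14.3 ± 0.14 FPKM, against 24.6 ± 0.15 FPKM in control cells (SD, n = 3 each). On the scale of log2(FPKM + 1), which understates the change of low genes and is used for every fold change of expression here, this was -0.74 ± 0.02 (SE, limma adjusted p = 2.26e-06). Under TiO2 it fell by 17.5%, to 20.3 ± 0.53 FPKM (SD, n = 3), a log2 fold change of -0.27 ± 0.02 (limma adjusted p = 0.000165). BPQD and TiO2 differed from each other by -0.47 ± 0.02 (limma adjusted p = 1.15e-05). The authors' deposited table gives an expression q of 5.38e-08 for CDKN1A under BPQD and of 0.254 under TiO2, and marks neither as significant.

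BTG2 (ENSG00000159388, chr1:203305491-203309602, plus strand) encodes an antiproliferative protein that recruits the deadenylation machinery to mRNA. Its level was 6.60, 6.55 and 6.88 FPKM in the BPQD libraries, 7.24, 7.15 and 6.55 FPKM in the TiO2 libraries, and 12.4, 11.9 and 12.2 FPKM in the control libraries. Every treated library lay far below every control library, and the 2 treated groups overlapped. BTG2 fell by 45.1% under BPQD (log2 fold change -0.78 ± 0.04, limma adjusted p = 1.11e-05) and fell by 42.6% under TiO2 (-0.72 ± 0.04, limma adjusted p = 1.79e-05). The 2 materials differed by -0.06 on the log2 scale, with a 95% interval of -0.15 to 0.04 (limma adjusted p = 0.316). The authors' deposited table gives BTG2 an expression q of 0.000264 under TiO2.

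TP53I3 (ENSG00000115129, chr2:24077433-24085861, minus strand) encodes a quinone oxidoreductase-like enzyme, also known as PIG3, that takes part in the generation of reactive oxygen species. It had 5.27, 5.38 and 6.002 FPKM in the BPQD libraries, 6.61, 6.50 and 6.49 FPKM in the TiO2 libraries, and 8.20, 8.45 and 8.26 FPKM in the control libraries. The groups were in the same order as for CDKN1A and did not overlap. TP53I3 fell by 33.1% under BPQD (log2 fold change -0.51 ± 0.04, limma adjusted p = 9.18e-05) and fell by 21.3% under TiO2 (-0.30 ± 0.04, limma adjusted p = 0.0013). Between the materials the difference was -0.20 ± 0.04 (limma adjusted p = 0.00817). The authors' deposited table gives an expression q of 0.383 for TP53I3 under TiO2.

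GDF15 (ENSG00000130513, chr19:18374731-18389176, plus strand) encodes a secreted stress cytokine of the TGF-beta superfamily, which the integrated stress response also induces. It had 10.1, 9.64 and 9.06 FPKM in the BPQD libraries, 16.8, 14.5 and 15.8 FPKM in the TiO2 libraries, and 10.7, 11.7 and 10.6 FPKM in the control libraries. Each TiO2 library was above each library of the other groups, and the BPQD libraries lay just under the control libraries. GDF15 was 42.8% higher under TiO2 than in control cells, with a log2 fold change of 0.48 ± 0.06 (limma adjusted p = 0.000866). Under BPQD the log2 fold change was -0.18 ± 0.06, which missed the threshold (limma adjusted p = 0.0506), and passed it without TiO2 replicate 1 (adjusted p = 0.0403) or TiO2 replicate 2 (adjusted p = 0.0341), which enter the shared estimate of spread. The BPQD difference also passed with only the 6 libraries compared (limma adjusted p = 0.0445) and with a pseudocount of 0.1 FPKM (limma adjusted p = 0.0488). BPQD against TiO2 gave -0.65 ± 0.06 (limma adjusted p = 0.000181). The authors' deposited tables give GDF15 an expression q of 0.509 under BPQD and of 0.0136 under TiO2. GDF15 was the only 1 of the 9 genes called higher in any of the 3 comparisons, apart from PPM1D under other scalings, given below.

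Of the 3 genes whose products restrain p53, MDM2 alone was called, and under TiO2 alone, while MDM4 scattered widely between libraries. MDM2 (ENSG00000135679, chr12:68808177-68850686, plus strand) encodes the ubiquitin ligase that marks p53 for degradation. It had 6.04, 5.10 and 5.11 FPKM in the BPQD libraries, 4.73, 4.96 and 4.82 FPKM in the TiO2 libraries, and 6.36, 6.17 and 5.35 FPKM in the control libraries. The TiO2 libraries lay below all others, and the BPQD and control libraries overlapped. MDM2 fell by 18.9% under TiO2, with a log2 fold change of -0.25 ± 0.07 (limma adjusted p = 0.0303). That call was lost without TiO2 replicate 1, 2 or 3 or control replicate 1 or 2 (limma adjusted p = 0.0607 to 0.0922). It was also lost with no filter on low values (limma adjusted p = 0.0791). Under BPQD the log2 fold change was -0.12 ± 0.07 (limma adjusted p = 0.237), and BPQD and TiO2 differed by 0.13, with a 95% interval of -0.04 to 0.31 (limma adjusted p = 0.196). With 1 library left out these ran from -0.19 to -0.08 and from 0.07 to 0.17, and neither passed. The authors' deposited table gives MDM2 an expression q of 0.223 under TiO2.

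MDM4 (ENSG00000198625, chr1:204516379-204558120, plus strand) encodes a relative of MDM2 that binds the activation domain of p53. Its level was 1.05, 1.08 and 1.90 FPKM in the BPQD libraries, 1.10, 1.54 and 1.42 FPKM in the TiO2 libraries, and 4.24, 1.48 and 0.911 FPKM in the control libraries. Control replicate 1 stood far above every other library and the other two control libraries lay within the range of the treated ones or under it. The log2 fold change was -0.34 ± 0.34 under BPQD (limma adjusted p = 0.47) and -0.31 ± 0.34 under TiO2 (limma adjusted p = 0.516). Without control replicate 1 the control mean was 1.19 FPKM and both differences changed sign, to 0.09 under BPQD and 0.11 under TiO2.

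PPM1D (ENSG00000170836, chr17:60600183-60666280, plus strand) encodes the phosphatase WIP1, which removes activating phosphates from p53 and its kinases. It had 4.95, 4.92 and 5.17 FPKM in the BPQD libraries, 5.22, 5.14 and 5.43 FPKM in the TiO2 libraries, and 4.95, 4.71 and 4.93 FPKM in the control libraries. The TiO2 libraries lay above the control libraries and the BPQD libraries overlapped them. The log2 fold change was 0.10 ± 0.03 under TiO2 (limma adjusted p = 0.0599) and 0.04 ± 0.03 under BPQD (limma adjusted p = 0.415), and neither passed. With values scaled to TPM or quantile normalized, the TiO2 difference passed, at limma adjusted p = 0.0341 and 0.043.

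SESN1 (ENSG00000080546, chr6:108986437-109094819, minus strand) encodes a sestrin, a stress protein that restrains mTORC1. It had 2.03, 2.16 and 2.17 FPKM in the BPQD libraries, 1.70, 2.38 and 2.14 FPKM in the TiO2 libraries, and 2.09, 1.41 and 2.29 FPKM in the control libraries. All 3 groups overlapped. Its log2 fold change was 0.10 ± 0.13 under BPQD (limma adjusted p = 0.549) and 0.07 ± 0.13 under TiO2 (limma adjusted p = 0.682). Both changed sign without control replicate 2, to -0.03 and -0.06.

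ZMAT3 (ENSG00000172667, chr3:178960121-179072215, minus strand) encodes a zinc finger protein that binds RNA. Its level was 1.40, 1.47 and 1.59 FPKM in the BPQD libraries, 1.34, 1.36 and 1.43 FPKM in the TiO2 libraries, and 1.56, 1.54 and 1.04 FPKM in the control libraries. The groups overlapped, and control replicate 3 was the lowest library. The log2 fold change was 0.07 ± 0.09 under BPQD (limma adjusted p = 0.564) and 0.01 ± 0.09 under TiO2 (limma adjusted p = 0.971). Without control replicate 3 these were -0.04 and -0.10, and without TiO2 replicate 3 the second was -0.01.

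**Figure D2:**
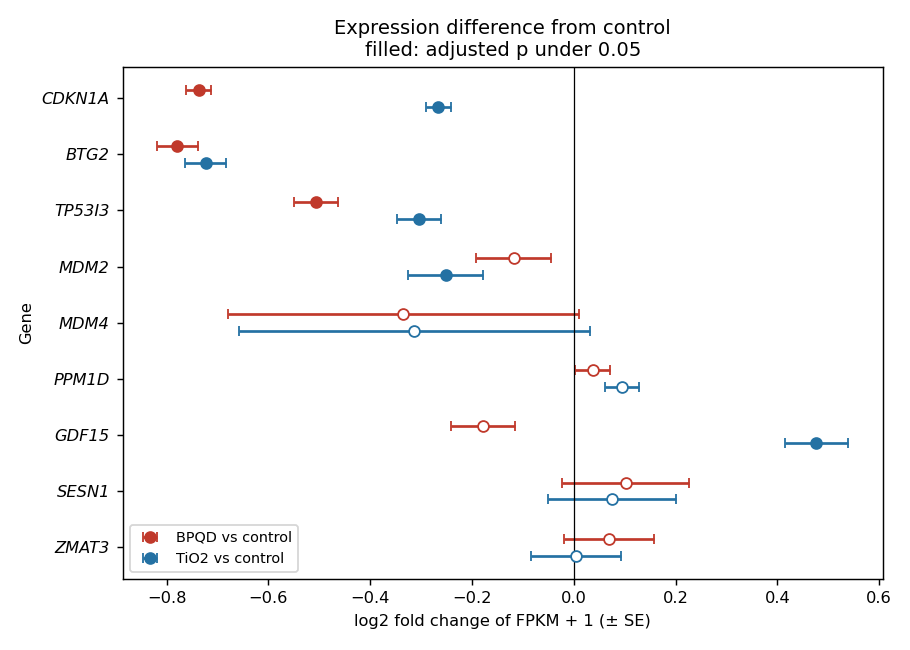
Log2 fold change of FPKM + 1 against control for the 9 genes, BPQD above TiO2 for each gene, with bars for the standard error; filled points passed a limma adjusted p of 0.05. CDKN1A, BTG2 and TP53I3 are filled and left of 0 under both materials, and GDF15 is filled and right of 0 under TiO2 alone, at 0.48.

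By FPKM, a level per length of transcript, the order of the 9 genes also moved. CDKN1A ranked first in all 3 groups. BTG2, at 12.2 FPKM, was second in control cells, and GDF15 was second under BPQD at 9.59 FPKM and under TiO2 at 15.7 FPKM. Under BPQD the ranges of TP53I3 and MDM2, and of MDM2 and PPM1D, overlapped, as those of BTG2 and TP53I3 did under TiO2. In control cells MDM4 overlapped SESN1, and SESN1 overlapped ZMAT3. Each of these lowest 3 genes averaged 1.34 to 2.21 FPKM in every group.

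Markers of other cell types also varied between groups, and in bulk RNA fewer cells of a type and less RNA per cell cannot be told apart. The summed level of the 7 epithelial markers was 855 to 875 FPKM in BPQD libraries, 956 to 1051 FPKM in TiO2 libraries and 1158 to 1245 FPKM in control libraries, the same order as CDKN1A and TP53I3. Nearly all of it was KRT8, KRT18 and KRT7. MUC1 had the same order, while EPCAM averaged 2.68 FPKM under BPQD, 2.71 under TiO2 and 2.19 in control and was not called. The 7 fibroblast markers, of which 4 averaged at least 1 FPKM, summed to 13.9 to 24.8 under BPQD, 27.9 to 37.7 under TiO2 and 29.3 to 29.8 in control, most of it LUM. COL1A1 and PDGFRB were called lower under both materials, and FAP was called lower under BPQD and higher under TiO2. The 5 leukocyte markers summed to 11.9 to 13.0 under BPQD, 17.8 to 23.2 under TiO2 and 11.4 to 13.6 in control, nearly all of it CD68, while PTPRC stayed at or under 0.0346 FPKM. The 3 endothelial markers summed to 1.19 to 1.35 under BPQD, 2.15 to 3.92 under TiO2 and 3.02 to 3.63 in control, and PECAM1 stayed at or under 0.186. The 7 lung and A549 markers summed to 10.4 to 10.7 under BPQD, 9.37 to 9.66 under TiO2 and 13.3 to 14.2 in control. The part of these differences in the results was not tested.

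A wider list of 46 known p53 targets, of which 40 passed the filter, moved in both directions. Under BPQD 6 were higher, 14 were lower and 20 were not called, so 20 of 40 were called where 44.0% of all tested genes were. Under TiO2 12 were higher, 14 lower and 14 not called, so 26 of 40 were called, against a background of 37.7%. That second count fell in other settings, and so did the background. It was 17 (42.5%) without TiO2 replicate 3, where 31.9% of all tested genes were called. Without control replicate 2 it was 16 (40%), against 31.7%. With no filter on low values it was 16 of 46 (34.8%), against 10.7% of all genes. The median log2 fold change was -0.12 under BPQD and 0.00 under TiO2. Side by side, 7 genes were lower under both materials, 5 were higher under both, and 2, FUCA1 and CSF1, were lower under BPQD and higher under TiO2. Both comparisons share the control libraries, and the same split over all tested genes is not given. Without it, the side-by-side split cannot be read as particular to p53 targets. Whether the TiO2 share above the background is particular to them was not tested. The TiO2 call of CSF1, a cytokine, was lost without control replicate 2 (limma adjusted p = 0.0513). In 8 genes neither comparison passed.

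In the apoptosis group, which was not sorted by direction of action, 14 of 17 targets were tested. Of these 3 were higher and 3 lower under BPQD, against 5 higher and 4 lower under TiO2. That is 42.9% called under BPQD, where 44.0% of all tested genes were, and 64.3% under TiO2, where 37.7% were. BAX, a pore-forming protein of mitochondria, averaged 10.9 ± 0.29 FPKM under BPQD, 12.5 ± 0.25 under TiO2 and 14.3 ± 0.66 in control (SD, n = 3 each). It fell under BPQD (log2 fold change -0.36 ± 0.04, limma adjusted p = 0.000234) and under TiO2 (-0.18 ± 0.04, limma adjusted p = 0.00854). PHLDA3, an inhibitor of AKT signalling, fell under BPQD (-0.45 ± 0.09, limma adjusted p = 0.00538). CDIP1, a proapoptotic membrane protein, gave -0.58 ± 0.19 under BPQD (limma adjusted p = 0.0414), a call lost without any 1 TiO2 or control library (limma adjusted p = 0.0594 to 0.0983). It was also lost with TPM, quantile normalization, no filter, the replicate block or the 6 libraries compared (limma adjusted p = 0.0507 to 0.0899), and without BPQD replicate 3 the CDIP1 value was -0.32. PERP, a desmosomal membrane protein, rose under TiO2 (0.29 ± 0.03, limma adjusted p = 0.000551), and its change under BPQD was -0.09 ± 0.03 (limma adjusted p = 0.0658). IKBIP rose under BPQD (0.30 ± 0.03, limma adjusted p = 0.000262) and under TiO2 (0.32 ± 0.03, limma adjusted p = 0.000238). TP53INP1, an autophagy and apoptosis cofactor, fell under TiO2 (-0.30 ± 0.07, limma adjusted p = 0.0127).

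The 5 DNA repair targets were all tested, and 1 was higher and 0 were lower under BPQD, where 44.0% of all tested genes were called, against 0 higher and 3 lower under TiO2, where 37.7% were. DDB2, which finds ultraviolet lesions, averaged 12.3 ± 2.3 FPKM under BPQD, 10.4 ± 0.34 under TiO2 and 15.3 ± 0.90 in control (SD, n = 3 each). It fell under TiO2 (log2 fold change -0.51 ± 0.11, limma adjusted p = 0.00883), while its change under BPQD was -0.30 ± 0.11 (limma adjusted p = 0.0591). POLH, a translesion polymerase, fell under TiO2 (-0.21 ± 0.04, limma adjusted p = 0.00641). XPC, the damage sensor of nucleotide excision repair, gave -0.22 ± 0.07 (limma adjusted p = 0.0413), and lost that call without any 1 TiO2 library, control replicate 1 or 2 or BPQD replicate 3 (limma adjusted p = 0.0603 to 0.105). The XPC call was also lost with TPM, quantile normalization, the replicate block, no filter or the 6 libraries compared (limma adjusted p = 0.0521 to 0.104). FANCC, of the Fanconi anaemia core complex, rose under BPQD (0.26 ± 0.04, limma adjusted p = 0.00218).

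Of 10 targets in metabolism, oxidant defence and autophagy 8 were tested, with 0 higher and 4 lower under BPQD, where 44.0% of all tested genes were called, against 3 higher and 3 lower under TiO2, where 37.7% were. SESN2, the sestrin related to SESN1, fell under both materials, to 3.15 ± 0.11 FPKM under BPQD and 3.22 ± 0.21 FPKM under TiO2, against 4.32 ± 0.34 FPKM in control (SD, n = 3 each). Its log2 fold changes were -0.36 ± 0.06 (limma adjusted p = 0.00176) and -0.33 ± 0.06 (limma adjusted p = 0.00303). FDXR, the ferredoxin reductase of mitochondria, fell under BPQD (-0.33 ± 0.08, limma adjusted p = 0.0123) and under TiO2 (-0.46 ± 0.08, limma adjusted p = 0.00324). FUCA1, a lysosomal fucosidase, averaged 5.51 ± 0.50 FPKM under BPQD, 8.79 ± 0.22 under TiO2 and 7.30 ± 0.50 in control (SD, n = 3 each). It fell under BPQD (-0.35 ± 0.06, limma adjusted p = 0.00336) and rose under TiO2 (0.24 ± 0.06, limma adjusted p = 0.022). The second call was lost without TiO2 replicate 2 or 3 or control replicate 2 or 3 (limma adjusted p = 0.0528 to 0.0697) and with no filter (limma adjusted p = 0.0575). DRAM1, an autophagy protein of the lysosome, gave 0.47 ± 0.14 under TiO2 (limma adjusted p = 0.0318), lost without TiO2 replicate 3 or control replicate 1 or 2 (limma adjusted p = 0.0737 to 0.0972). The DRAM1 call was also lost with no filter or the 6 libraries compared (limma adjusted p = 0.0844 and 0.0567). ALDH4A1, of proline breakdown, gave -0.49 ± 0.15 under TiO2 (limma adjusted p = 0.036), lost without TiO2 replicate 1 or 2 or any 1 control library (limma adjusted p = 0.0537 to 0.111). Its call was also lost with no filter or the 6 libraries compared (limma adjusted p = 0.0959 and 0.0512).

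In the cell cycle and signalling group 13 of 14 targets were tested, and 2 were higher and 7 lower under BPQD, where 44.0% of all tested genes were called, against 4 higher and 4 lower under TiO2, where 37.7% were. GADD45A, a growth arrest protein, went against CDKN1A: it averaged 13.4 ± 0.78 FPKM under BPQD, 11.3 ± 1.6 under TiO2 and 7.66 ± 1.2 in control (SD, n = 3 each). It rose under BPQD (log2 fold change 0.75 ± 0.13, limma adjusted p = 0.00238) and under TiO2 (0.51 ± 0.13, limma adjusted p = 0.0158), the second call being lost without TiO2 replicate 2 or 3 (limma adjusted p = 0.054 and 0.0529). SFN, the 14-3-3 sigma protein that holds the cell in G2, averaged 79.1 ± 1.5 FPKM under BPQD, 94.2 ± 1.6 under TiO2 and 111 ± 2.2 in control (SD, n = 3 each). Its log2 fold changes were -0.49 ± 0.02 (limma adjusted p = 8.88e-06) and -0.24 ± 0.02 (limma adjusted p = 0.000227), the same order of groups as CDKN1A. PLK2, a polo-like kinase, rose under BPQD (0.22 ± 0.02, limma adjusted p = 0.000332) and under TiO2 (0.39 ± 0.02, limma adjusted p = 3.57e-05). SERTAD1, a cyclin-dependent kinase regulator, fell under BPQD (-0.60 ± 0.06, limma adjusted p = 0.000234). Its TiO2 value, -0.19 ± 0.06 (limma adjusted p = 0.0491), is among the 4 lower calls and was lost in 16 of 17 alternatives, in each one but that without BPQD replicate 2 (limma adjusted p = 0.0502 to 0.142).

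**Figure D3:**
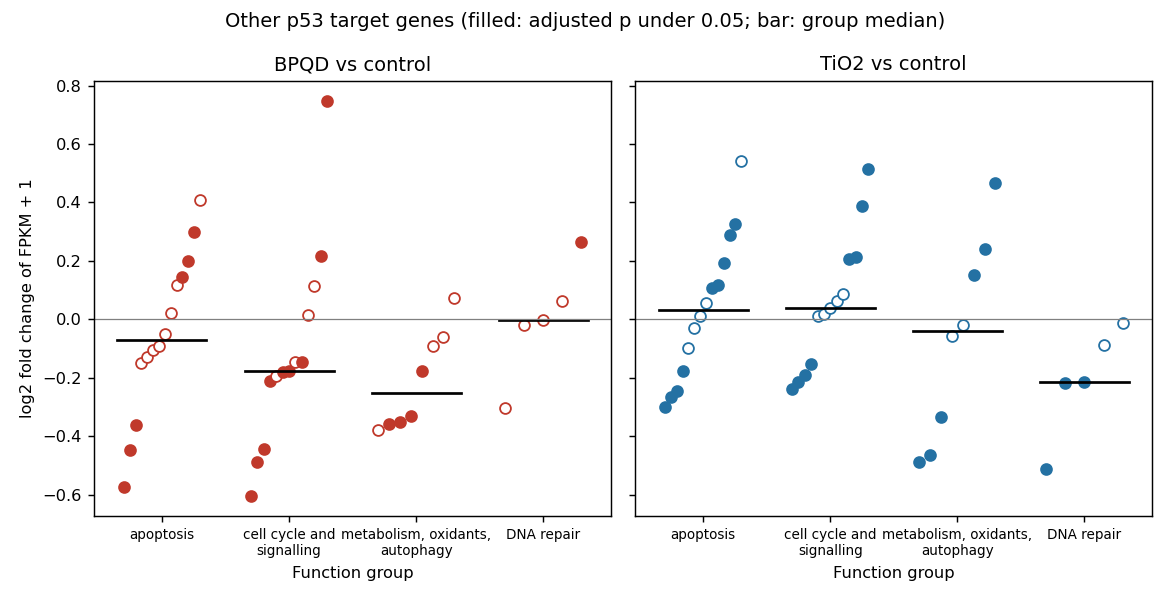
Log2 fold change of FPKM + 1 for the 40 tested genes of the wider list, by function, with BPQD against control on the left and TiO2 against control on the right; each point is a gene, filled where the limma adjusted p was under 0.05, and the bar is the median of the group. In the BPQD panel the 13 cell cycle and signalling genes have a median of -0.18 with GADD45A highest at 0.75, and in the TiO2 panel DDB2 is the lowest repair gene at -0.51.

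The genes that act on p53 were read as a list of 18, all tested. Under BPQD 8 were higher, 1 was lower and 9 were not called, where 20.6% of all tested genes were higher and 23.4% lower. Under TiO2 4 were higher, 4 were lower and 10 were not called, where 17.3% of all tested genes were higher and 20.5% lower. NPM1, a nucleolar protein that can bind MDM2, averaged 616 ± 22 FPKM under BPQD, 608 ± 10 under TiO2 and 460 ± 37 in control (SD, n = 3 each). It rose under BPQD (log2 fold change 0.42 ± 0.06, limma adjusted p = 0.000648) and under TiO2 (0.41 ± 0.06, limma adjusted p = 0.00106). RPL11, a ribosomal protein that inhibits MDM2 when free, rose under BPQD (0.27 ± 0.03, limma adjusted p = 0.000138) and under TiO2 (0.27 ± 0.03, limma adjusted p = 0.000191). RCHY1, a ubiquitin ligase for p53, rose under BPQD (0.28 ± 0.05, limma adjusted p = 0.00423). DAXX, a chaperone of histone H3.3 that also binds MDM2, gave -0.47 ± 0.13 under BPQD (limma adjusted p = 0.02), lost without control replicate 2 (limma adjusted p = 0.0609), and without BPQD replicate 1 the DAXX value was -0.31. CREBBP, an acetyltransferase and coactivator of p53, gave -0.37 ± 0.10 under TiO2 (limma adjusted p = 0.0245), lost without any 1 TiO2 library or control replicate 2 or 3 (limma adjusted p = 0.0551 to 0.078). The CREBBP call was also lost with no filter (limma adjusted p = 0.0659).

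Family relatives of the 9 genes were read as a separate list, which shares SESN2 and BTG1 with the wider targets. Of 14 relatives 11 were tested, with 1 higher and 6 lower under BPQD, where 20.6% of all tested genes were higher and 23.4% lower, and 2 higher and 4 lower under TiO2, where 17.3% were higher and 20.5% lower. CDKN1C, which encodes the p57 inhibitor related to p21, averaged 7.57 ± 0.30 FPKM under BPQD, 13.4 ± 0.27 under TiO2 and 15.7 ± 0.34 in control (SD, n = 3 each), the same order as CDKN1A. It fell under BPQD (log2 fold change -0.96 ± 0.03, limma adjusted p = 2.33e-06) and under TiO2 (-0.22 ± 0.03, limma adjusted p = 0.00194). BTG1, the nearest relative of BTG2, averaged 6.48 ± 0.31 FPKM under BPQD, 9.45 ± 0.28 under TiO2 and 9.16 ± 0.12 in control (SD, n = 3 each). It fell under BPQD (-0.44 ± 0.04, limma adjusted p = 8.49e-05), and under TiO2, where BTG2 fell, its log2 fold change was 0.04 ± 0.04 (limma adjusted p = 0.44). TOB2, another antiproliferative protein of this family, fell under BPQD (-0.32 ± 0.04, limma adjusted p = 0.000432) and under TiO2 (-0.32 ± 0.04, limma adjusted p = 0.00056). BTG3 gave 0.39 ± 0.10 under TiO2 (limma adjusted p = 0.0153), with an adjusted p of 0.05 without control replicate 2.

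Profiles over the 9 input libraries were compared by the root mean square difference of log2(FPKM + 1) after each gene's own mean was removed. Nearest to CDKN1A were JUNB, an AP-1 subunit, at 0.041, MGLL, a monoglyceride lipase, at 0.042, and MPG, a DNA glycosylase, at 0.052, where the median over tested genes was 0.333. JUNB averaged 17.5 FPKM under BPQD, 23.6 under TiO2 and 29.5 in control. Nearest to MDM2 were CDK16 at 0.045, GSTA4 at 0.045 and UCN2 at 0.046, with a median of 0.189. These distances describe 9 libraries that share groups and carry no test.

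The m6A tables of the authors list peaks with a log2 fold change of enrichment against control, a p-value and an FDR, and all peak values below are the authors' deposited values. The 9 genes had 12 peaks in 6 genes in the BPQD table, none of them in BTG2, SESN1 or TP53I3, and 14 peaks in all 9 genes in the TiO2 table. For BPQD, 5 of the 12 had p under 0.05, 3 higher and 2 lower, or 41.7%, against 64.8% of all 14903 peaks, 37.7% higher and 27.1% lower. For TiO2, 9 of the 14 did, 4 higher and 5 lower, or 64.3%, against 64.1% of all 12888 peaks, 40.3% higher and 23.8% lower. At an FDR under 0.05 the counts were 5 and 5, where 43.7% and 40.0% of all peaks passed. The count for TiO2 was thus at the background and that for BPQD under it. The 3′ UTR peaks with p under 0.05 were all of MDM2 or MDM4 and all higher, 3 in each table, where 43.3% of all 3′ UTR peaks in the BPQD table and 43.0% in the TiO2 table were higher at that threshold.

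MDM2 carried a 3′ UTR peak at chr12:68841601-68842711 in both tables. The authors' deposited log2 fold change there was 0.23 under BPQD (p = 9.77e-07, FDR = 2.19e-05) and 0.34 under TiO2 (p = 6.31e-13, FDR = 5.01e-11). A peak that overlaps it, chr12:68841607-68842918, had a log2 fold change in the authors' deposited table of 0.20 under BPQD (p = 0.0871) and of 0.19 under TiO2 (p = 0.0955). A further peak at chr12:68836679-68839863 was higher under BPQD in the authors' deposited table (0.13, p = 0.00398), and chr12:68842197-68851341 was higher under TiO2 (0.31, p = 0.00631). Each MDM2 peak past the authors' p of 0.05 was thus higher, in either table, while its RNA level was -0.12 under BPQD and -0.25 under TiO2 on the log2 scale. Within the same stretch the tables also list a peak assigned to AC025423, at chr12:68841946-68842384, with log2 fold changes of 0.27 under BPQD and 0.42 under TiO2, and peaks have no strand, so the genes cannot be told apart there.

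MDM4 had the lowest p of the 9 genes' peaks in the BPQD table, at a 3′ UTR peak at chr1:204544655-204549812. The authors' deposited log2 fold change was 0.40 under BPQD (p = 1.7e-08, FDR = 5.37e-07) and 0.45 under TiO2 (p = 1.29e-09, FDR = 6.17e-08). An exon peak in the middle of the gene, chr1:204528874-204529371 in the authors' deposited table for BPQD, had -2.60 (p = 0.0513), and its counterpart chr1:204528903-204529342 in that for TiO2 had -2.15 (p = 0.137). The tables annotate that exon to AL512306, a gene inside MDM4, and the signal of the 2 genes cannot be told apart. The lone high control input library of MDM4, at 4.24 FPKM, bears on any enrichment over input in this gene, and its part was not tested.

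CDKN1A had an exon peak in both tables. The authors' deposited log2 fold change was -0.37 at chr6:36684132-36684341 under BPQD (p = 0.00126, FDR = 0.0102) and -0.17 at chr6:36684102-36684371 under TiO2 (p = 0.0437, FDR = 0.169). Its 3′ UTR peak at chr6:36687100-36687339, in the authors' deposited table for BPQD, had 0.12 (p = 0.0871). The 5′ peaks in the authors' deposited tables lay around the promoter shown above: chr6:36677757-36678470 had 2.74 under BPQD (p = 0.0589), and chr6:36677859-36678912 had -0.35 under TiO2 (p = 0.00794, FDR = 0.0513). The first reached only into the upstream edge of that promoter window, and the second covered it. Those 2 overlapping peaks had opposite signs, and the larger was not past the authors' p of 0.05.

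**Figure D4:**
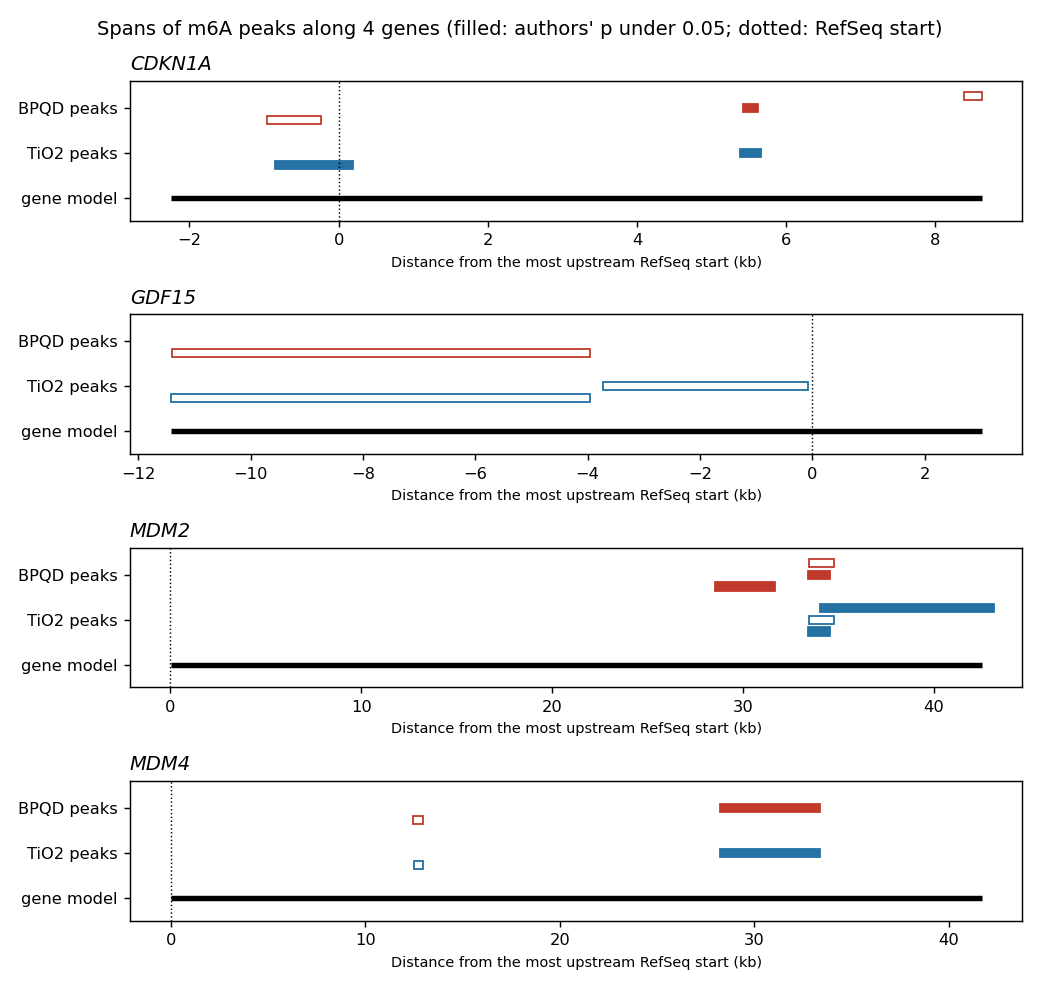
Peaks of 4 genes by distance in kilobases from the most upstream RefSeq start, BPQD peaks above TiO2 peaks and the deposited gene model; filled bars had an authors' p under 0.05. The peaks of GDF15 lie before its RefSeq start at 0, and the 3′ UTR peaks of MDM2 and MDM4 lie in the downstream part of each gene, with peaks at the same place in both tables.

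ZMAT3 had a peak at chr3:179067501-179067771 in the BPQD table, with -0.64 (p = 0.00603, FDR = 0.0355), and at chr3:179067501-179067741 in the TiO2 table, with -0.68 (p = 0.00355, FDR = 0.0275), both values the authors' deposited log2 fold changes. Its RNA did not pass the test under either material. BTG2 had a single peak, chr1:203305491-203308164, which takes in the transcription start and 65.0% of the gene. The authors' deposited log2 fold change there was 0.25 under TiO2 (p = 8.71e-05, FDR = 0.00132), where its RNA fell by 42.6%. TP53I3, at chr2:24082903-24084442, had -0.16 (p = 0.0112, FDR = 0.0661) and SESN1, at chr6:109093921-109094819, had -0.36 (p = 0.0355, FDR = 0.149), both under TiO2 in the authors' deposited table. No peak assigned to PPM1D passed. Its values in the authors' deposited tables at chr17:60666131-60666250 were 1.26 under BPQD (p = 0.167) and, at chr17:60666131-60666280, 1.56 under TiO2 (p = 0.109), and chr17:60665892-60666071 had 0.64 under BPQD (p = 0.168). The authors' deposited table for TiO2 also lists a peak within the PPM1D span, chr17:60656806-60663863, assigned to RNU6-623P, with 0.15 (p = 0.00457), and without strand the genes cannot be told apart. Peaks assigned to FAM228B at the end of TP53I3 had p of 0.286 under BPQD and 0.0759 under TiO2 in the authors' deposited tables.

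GDF15 peaks were wide and lay upstream of the RefSeq start at 18386158, within a deposited gene model that begins far before it. The authors' deposited log2 fold change was 2.17 at chr19:18374761-18382195 under BPQD (p = 0.0741), 1.51 at chr19:18374731-18382195 under TiO2 (p = 0.122) and 1.03 at chr19:18382433-18386081 under TiO2 (p = 0.29), and none passed. The last ends 77 bases before the RefSeq start, within the promoter shown above. RNA from upstream of the RefSeq gene could thus enter the deposited GDF15 level, and its part was not tested.

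**Figure D5:**
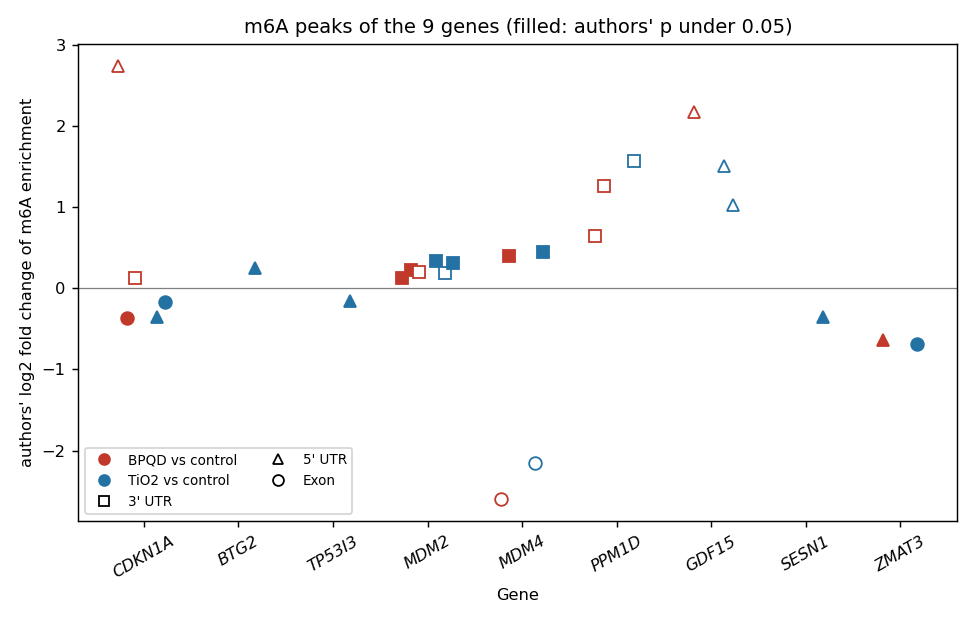
The authors' log2 fold change of m6A enrichment for each peak of the 9 genes, BPQD left of TiO2 for each gene, with squares for 3′ UTR, triangles for 5′ UTR and circles for exon peaks; filled symbols had an authors' p under 0.05. The filled symbols lie between -0.68 and 0.45, the squares of MDM2 and MDM4 are all above 0, and the values beyond 1 in size are open.

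By position, 9 of the 12 peaks in the BPQD table (75.0%) and 10 of the 14 in the TiO2 table (71.4%) overlapped a peak of the same gene in the other table by at least 1 base. Over all peaks the shares were 47.9% in the BPQD table and 55.3% in the TiO2 table. Both tables were made against the same control libraries. By annotation the BPQD table placed 7 of the 12 in a 3′ UTR, 3 in a 5′ UTR and 2 in exons, and the TiO2 table placed 5, 6 and 3 of its 14. The median fold change of the 9 genes' peaks was 0.21 under BPQD on the log2 scale, against 0.16 over all peaks of that table, and 0.22 under TiO2, against 0.15.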

How the data were processed

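Per the labels' protocols, cells were grown in DMEM/F-12 and RNA was extracted with Trizol. Per the submitters' processing notes, StringTie 1.3.0 and HISAT2 (no version stated) were used, with the build named as mm10; the gene IDs are human, and of 24557 symbols matched to RefSeq GRCh38.p14, 100% lay on the same chromosome and 97.9% had a start or end within 1000 bases, so positions are read as GRCh38. The authors deposited FPKM per gene for the 9 input libraries, whose depth is unknown. The authors also deposited a peak table for each material, which holds a log2 fold change of m6A enrichment with its p-value and FDR (as log10, treated as a score) and p- and q-values of expression. The peak caller and any pooling: not given in the sources used here. A further 12 FPKM columns of single samples in those tables were not used.

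Group means of log2(FPKM + 1) were fitted with limma 3.58.1 (R 4.3.3; trended moderation, two-sided) to all 9 input libraries, on the 12224 genes averaging 1 FPKM or more, with Benjamini-Hochberg adjustment over those genes and a threshold of 0.05. The fit was tested on simulated data. Groups came from sample titles. Replicate numbers showed no visible pairing of the libraries, and the labels state none. Tables were handled in Python 3.11.15 with pandas 2.3.3 and numpy 2.4.6. Peaks were described, not tested. Motifs were searched on both strands of 250-base RefSeq promoter windows; p53 half-sites were allowed 1 mismatch outside the core. The 9 genes and the lists were chosen with earlier results of these data known. From each list, up to 3 called genes with the largest absolute log2 fold change per comparison with control were named, and for CDKN1A and MDM2 the 3 nearest profiles; CSF1 was named after its values were seen. The p53 gene itself is not reported here. Alternatives were another pseudocount, no filter, TPM, median centring, quantile normalization, robust moderation, a replicate block, the 6 libraries compared and leaving out each library.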

Additional observations from a re-analysis of the deposited data

Results flagged for a closer look

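Among the 9 p53 target genes and the genes named from the lists of wider targets, regulators and relatives, 17 genes are given here. In each, the difference between the effects of BPQD and TiO2 passed limma's direct test of that difference (adjusted p under 0.05). That test amounts to BPQD against TiO2, since both effects share the control libraries. Of all tested genes 37.6% passed it. The list genes had mostly been named for large fold changes in these same data, so the count by itself sets no gene apart. The doses differed. Of the 9 p53 target genes, the log2 fold change under BPQD minus that under TiO2 was -0.47 for CDKN1A, -0.65 for GDF15 and -0.20 for TP53I3. Of the apoptosis genes it was -0.18 for BAX, -0.50 for PHLDA3 and -0.38 for PERP. Of the cell cycle genes and relatives it was -0.74 for CDKN1C, -0.48 for BTG1, -0.41 for SERTAD1, -0.25 for SFN, -0.42 for CSF1 and -0.17 for PLK2. Of the metabolic genes it was -0.59 for FUCA1 and -0.53 for DRAM1. Without BPQD replicate 1 the DRAM1 difference was -0.45 and no longer passed (adjusted p = 0.0642). The 3 DNA repair genes went the other way, with 0.35 for FANCC, 0.19 for POLH and 0.21 for XPC, and XPC lost its call in 9 of the alternatives, with adjusted p of 0.0543 to 0.126.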

How the results depend on the processing

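Over all alternatives the counts of the 9 genes called were 3 to 4 under BPQD, 4 to 6 under TiO2 and 3 between the materials. Of the wider target list, 26 genes were called under TiO2, but 16 with no filter on low values and 16 to 24 with 1 library left out. The share of all genes called under TiO2 fell as well, from 37.7% to 10.7% with no filter. With 1 library left out it was 30.7% to 36.8%. Of the 14 TiO2 peaks, 9 had an authors' p under 0.05 and 5 an FDR under 0.05. With the replicate number as a block the 9 genes gave 3, 5 and 3 calls, and the wider list 19 under BPQD and 20 under TiO2. No pairing by replicate number was visible in the deviations of each library from the mean of its group, taken gene by gene. The correlation of these deviations between same-numbered libraries of different groups ran from -0.083 to 0.0733. By the mean of these correlations, 3 of 9 libraries correlated best with their own number. The log2 values themselves correlated at 0.98 to 0.983 within groups. The labels do not say whether same-numbered libraries were handled together, and these correlations cannot settle it.

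Signs reversed, for values that did not pass the test, in 3 low genes when 1 library was left out. MDM4 ranged over those settings from -0.19 to 0.066 between the materials, from -0.64 to 0.087 under BPQD and from -0.62 to 0.11 under TiO2. SESN1 ranged from -0.063 to 0.099 between the materials, from -0.033 to 0.19 under BPQD and from -0.060 to 0.16 under TiO2. ZMAT3 ranged from -0.038 to 0.13 under BPQD and from -0.10 to 0.063 under TiO2. The cause was not tested. Scaling to TPM moved the share of higher genes among all called ones to 58.3% under BPQD, against 46.9%, with the 9 genes' BPQD calls still 0 higher and 3 lower. Among single genes and settings, 1328 values kept their direction and side of the threshold, 82 lost it and 6 gained it. Read depth is unknown, and the 3 libraries per group limit the precision of genes near 1 FPKM.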
